A study of Saccharomyces cerevisiae with 279 samples.

Results

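The transcripts described here are those of the ergosterol pathway of Saccharomyces cerevisiae: the enzymes that make ergosterol, the electron donors and transcription factors that serve the pathway, and the enzymes that store sterols as esters. They were chosen by gene symbol in the deposited annotation, with no measured value in the rule, although earlier results of these data were known. They number 30 of 5906 nuclear mRNAs. By role 9 genes belong to the mevalonate segment (ERG10, ERG13, HMG1, HMG2, ERG12, ERG8, MVD1, IDI1, ERG20). Another 3 make squalene and turn it into lanosterol (ERG9, ERG1, ERG7). The route from lanosterol to ergosterol holds 11 (ERG11, ERG24, ERG25, ERG26, ERG27, ERG28, ERG6, ERG2, ERG3, ERG5, ERG4). The rest are 2 electron donors (NCP1, CYB5), 2 transcription factors (UPC2, ECM22) and 3 genes of sterol ester formation and breakdown (ARE1, ARE2, YEH2). All 30 passed the filter on low counts in every comparison of abundance and had a transcript length in the annotation.

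Ergosterol is the main sterol of fungal membranes, where it takes the place that cholesterol has in animal cells and sets membrane fluidity and permeability. Its synthesis starts from acetyl-CoA in the cytosol, runs through mevalonate and the isoprenoids to squalene, and ends in a series of oxygen- and haem-dependent reactions carried out by proteins of the endoplasmic reticulum and of lipid droplets. In yeast the transcription factors Upc2 and Ecm22 bind sterol regulatory elements in front of many of these genes, and ethanol, heat and low oxygen are known to bear on sterol supply. The soluble enzymes of the mevalonate segment are made on free ribosomes, whereas most later enzymes are membrane proteins.

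The study asked which mRNAs gather into condensates and which stay on ribosomes in stressed yeast. In Sed-seq, a lysate was spun and RNA of the supernatant, the pellet and the unspun Total was sequenced, so that pSup, the fraction of a transcript that stays in the supernatant, could be estimated. In Polysome-seq, Total RNA and fractions of a gradient were sequenced: for heat the free RNA, mono- and disomes together and a polysome pool of larger assemblies, and for ethanol and azide the free RNA and a single pool of all ribosome-bound fractions. Occ is the ribosome-bound share of the bound and free RNA, set by a Schizosaccharomyces pombe spike-in. The paper holds that condensed RNA of stressed cells may pellet in the gradient, so that absolute occupancy is hard to obtain. It therefore used bound RNA over Total for stressed cells. It also found a translationally blocked reporter mRNA in heavy gradient fractions, so RNA there need not be on ribosomes. The files used here hold 91 lysates (77 of Sed-seq and 14 of Polysome-seq) in 279 libraries.

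Cells of strain BY4741 were compared with mock-treated or 30 °C cells of the same experiment after 15 min in medium with ethanol (at 5%, 10%, 7.5% or 15%), 10 min at 42 °C or 46 °C, 0.5% or 0.8% sodium azide at pH 6.8 for 30 min, or 10 mM dithiothreitol (DTT), a reducing agent that unfolds secretory proteins, for 15 min. Cycloheximide (CHX), which stops ribosomes on the mRNA, was given for 10 min at 100 µg/mL at 30 °C and before a 46 °C shock; single lysates at 42 °C with and without CHX enter the fits of that experiment but no comparison. The translation initiation factors eIF3b and eIF4E were depleted for 2 h through an auxin-inducible degron, each in a strain of its own (yJB042 for eIF3b and yHG038 for eIF4E), and compared with mock-treated cells of that strain at 30 °C, 42 °C and 46 °C. A second set of 46 °C and 30 °C lysates carried an S. pombe spike-in in Sed-seq. Polysome-seq covered 42 °C and 46 °C, 7.5% ethanol and 0.8% azide. For Sed-seq heat, pelleted cells were placed in a water bath, whereas for Polysome-seq filtered cells went into warmed medium. Each group compared had 2 lysates grown separately. The spread behind the p-values was estimated over all groups of an experiment and drawn towards that of other mRNAs. It is therefore not the spread of 1 transcript between the 2 lysates of a group. A further 7 lysates, 1 from each of 7 hairpin reporter strains (yHG005, yHG006, yHG007, yHG008, yHG010, yHG026 and yHG027) at 30 °C, enter only the account of unstressed sedimentation. Degron depletion acts on the protein, so the transcript of the depleted factor is no check of it. Values after ± are standard errors (SE), and coordinates are on build R64.

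Total libraries held 2222970 to 30761624 counts on nuclear mRNAs in Sed-seq and 9430520 to 28892474 in Polysome-seq. The summed TPM of the alpha-type transcripts STE3, MF(ALPHA)1, MF(ALPHA)2 and SAG1 was 9.36 to 46.5 in the 60 BY4741 lysates, and 2271 to 8975 in the 31 lysates of the depletion and reporter strains, which therefore carry markers of the other mating type. That of the a-type transcripts STE2, MFA1, MFA2 and BAR1 was 529 to 54199 and 26.8 to 1565 in these 2 sets, so its ranges overlapped. The paper lists the reporter strains as MATa, and this difference was not tested. Changes of abundance below are log2 fold changes from edgeR's quasi-likelihood test after TMM scaling, adjusted over all mRNAs tested, and a transcript is called at an adjusted p under 0.05. The median over all tested mRNAs lay between -0.029 and 0.063 in every comparison. On the TPM scale (the share of a transcript in the pool of nuclear mRNAs, per length and scaled to a fixed sum), fold changes differed by a median of -0.41 in 7.5% ethanol, -0.20 in 10% ethanol, -0.11 in 5% ethanol and -0.59, -0.16 and -0.27 in the Polysome-seq Totals at 42 °C, at 46 °C and in ethanol, and by 0.27 in 0.5% azide, 0.27 in DTT, 0.51 under CHX, 0.78 after eIF3b depletion and 0.29 after eIF4E depletion. Members whose direction turned on that scale are named where their comparison is given.

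In unstressed cells the pathway was well expressed, and 28 of 30 members had a median TPM over 28 lysates above the 30.2 TPM that is the median of all nuclear mRNAs. ERG25, the sterol methyl oxidase that starts C-4 demethylation, was the most abundant, with a median of 1114 TPM and a range of 403 to 3209. ERG3 (a sterol desaturase), ERG6 (the sterol methyltransferase) and ERG2 (the sterol isomerase) followed, with medians of 834, 813 and 721 TPM, and their ranges overlapped that of ERG25. The lowest were both transcription factors: UPC2 had a median of 21.1 TPM (9.65 to 75.1) and ECM22 of 11.7 (6.91 to 24.1). Levels moved a good deal between experiments, so each treatment is set only against its own control lysates: CYB5 stood at 102.6 and 95.2 TPM in the 30 °C lysates of the Sed-seq heat experiment and NCP1 at 42.95 and 61.6 TPM, against medians over all 28 lysates of 458 and 403 TPM.

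At 5% ethanol most of the pathway fell, whereas at 10% and 15% more members rose than fell. At 5% ethanol 21 members fell and 3 rose (ECM22, ARE2 and ERG12), where 39% of all tested mRNAs fell and 33.8% rose, and the median member stood at -0.74. The steepest fall was that of ERG5 (YMR015C, chromosome XIII, 300869 to 302485, minus strand), the cytochrome P450 that desaturates the sterol side chain: it had 12.9 and 11.8 TPM at 5% ethanol, against 111.6 and 112.8 TPM in mock lysates (log2 fold change -3.06 ± 0.074, adjusted p = 2.21e-11). CYB5 (YNL111C, chromosome XIV, 416940 to 417302, minus strand), the cytochrome b5 that hands electrons to sterol-modifying enzymes, had 69.3 and 55.6 TPM at 5% ethanol, against 294 and 347 TPM in mock lysates (-2.30 ± 0.13, adjusted p = 1.19e-08). In both cases the groups were far apart and their 2 lysates close together. HMG-CoA synthase ERG13 had 75.5 and 69.5 TPM at 5% ethanol, against 207 and 215 TPM in mock lysates (-1.43 ± 0.063). Lanosterol synthase ERG7 (-1.33), the mevalonate pyrophosphate decarboxylase MVD1 (-1.25), the HMG-CoA reductase HMG1 (-1.12) and UPC2 (-1.10) completed the larger falls. The falls ran through every segment: 7 of 9 mevalonate genes, 2 of the 3 genes that make squalene and lanosterol, 9 of 11 of the late route and both electron donors. ERG26, ERG28, ERG9, HMG2, ARE1 and YEH2 passed in neither direction, with values of -0.14 to 0.022.

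At 10% ethanol, in the same experiment and against the same mock lysates, 13 members rose and 3 fell, where 26.9% of all mRNAs rose and 26.7% fell. The lanosterol demethylase ERG11 had 436 and 415 TPM at 10% ethanol, against 259.6 and 258 TPM in mock lysates (0.92 ± 0.076, adjusted p = 1.38e-06). CYB5 had 505 and 409 TPM at 10% ethanol, against 294 and 347 TPM in mock lysates (0.64 ± 0.11, adjusted p = 3.59e-04). ERG3 (0.63), the squalene epoxidase ERG1 (0.52), ECM22 (0.50) and ERG5 (0.45) rose as well. As TPM ratios 13 members were higher and 17 lower. The 3 that fell were ERG28 (-0.51), the endoplasmic reticulum scaffold of the C-4 demethylation complex, HMG2 (-0.42) and squalene synthase ERG9 (-0.30). Set directly against 5% ethanol, 22 members were higher and 5 lower at 10%, where 78.8% of all mRNAs differed in either direction. The contrast was widest for ERG5, at 140.3 and 126.1 TPM in 10% ethanol, against 12.9 and 11.8 TPM in 5% ethanol (3.52 ± 0.075, adjusted p = 3.84e-12). ERG28 ran the other way, with 185 and 164 TPM in 10% ethanol, against 271 and 256 TPM in 5% ethanol (-0.52 ± 0.069).

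In a separate experiment at 7.5% ethanol most mevalonate genes fell. Of the members 8 rose and 10 fell, against 29.2% and 29.4% of all mRNAs, and 7 of the 10 that fell were mevalonate genes, while 3 of the 11 late genes rose and 1 fell. HMG1 had 40.6 and 38.3 TPM at 7.5% ethanol, against 78.01 and 82.6 TPM in mock lysates (-0.62 ± 0.065, adjusted p = 4.20e-05). ERG13 had 152 and 155 TPM at 7.5% ethanol, against 276 and 323 TPM in mock lysates (-0.55 ± 0.077). The acetoacetyl-CoA thiolase ERG10 (-0.54), MVD1 (-0.51) and ERG7 (-0.48) fell with them. UPC2 (YDR213W, chromosome IV, 889751 to 892492, plus strand) showed the largest rise, with 27.5 and 30.5 TPM at 7.5% ethanol, against 17.1 and 19.3 TPM in mock lysates (1.08 ± 0.079, adjusted p = 4.05e-06). ERG1 had 375 and 431 TPM at 7.5% ethanol, against 307 and 353 TPM in mock lysates (0.70 ± 0.087), and ECM22 rose by 0.86. The scale bears on the smaller rises: ERG11, ERG3, ERG5 and ERG12 rose by 0.22 to 0.38 after TMM scaling but stood at -0.19 to -0.027 as log2 TPM ratios, where 26 of 30 members were lower, whereas the falls of the mevalonate genes and the rises of UPC2, ECM22 and ERG1 kept their sign on both scales.

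At 15% ethanol, the third experiment, 14 members rose and 1 fell, against 13.1% and 10.1% of all mRNAs, and the changes were small outside a few genes (median 0.10). UPC2 had 68.6 and 66.1 TPM at 15% ethanol, against 24.1 and 23.5 TPM in mock lysates (1.53 ± 0.046, adjusted p = 3.43e-14). ERG11 (YHR007C, chromosome VIII, 120091 to 121683, minus strand) had 1262 and 1228 TPM at 15% ethanol, against 763 and 739 TPM in mock lysates (0.76 ± 0.031, adjusted p = 1.45e-12). ERG1 had 910.0 and 879.9 TPM at 15% ethanol, against 548 and 551 TPM in mock lysates (0.73 ± 0.032). The sterol acyltransferase ARE2 (0.62), ERG28 (0.36) and HMG2 (0.33) also rose, and HMG1 was the member that fell (-0.15). The 3 ethanol experiments have their own controls, so doses from different experiments are set side by side without a test.

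**Figure D1:**
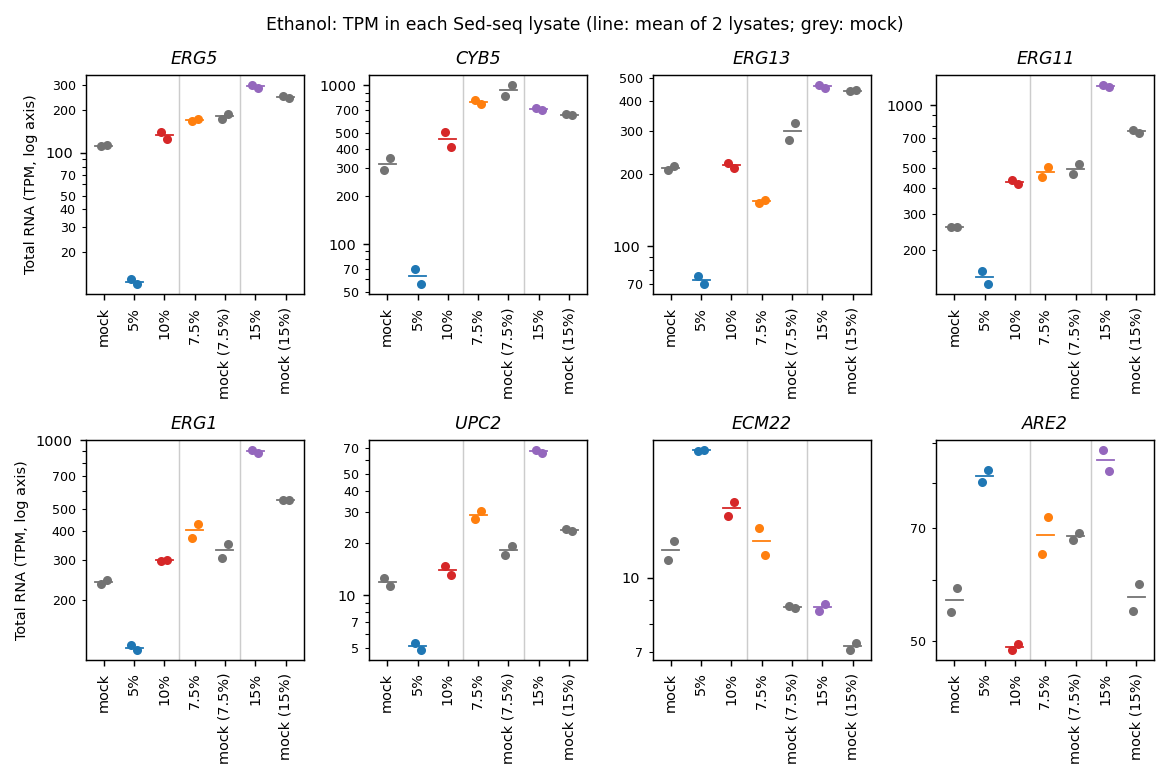
Total RNA (TPM, log axis) of members in each Sed-seq lysate of the ethanol experiments; points are lysates, lines the mean of 2, and grey marks mock lysates. ERG5 dropped to 12.9 and 11.8 TPM at 5% ethanol, against 111.6 and 112.8 TPM in mock lysates, and UPC2 reached 68.6 and 66.1 TPM at 15%, against 24.1 and 23.5 TPM in mock lysates.

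The 2 heat experiments gave different pictures of the pathway's abundance. In the Sed-seq heat experiment 1 member, UPC2, rose at 42 °C and none was called at 46 °C, where 7.23% and 0.44% of all mRNAs changed. UPC2 had 24.4 and 26.2 TPM at 42 °C, against 18.6 and 18.4 TPM at 30 °C (0.50 ± 0.056, adjusted p = 4.66e-04), and with the replicate as a block, which the Total libraries of this experiment allow, 2 members were called. At 46 °C 2 members had an unadjusted p under 0.05 and DESeq2 called 0, but without the first 46 °C lysate edgeR called 6, all higher. In the second set of 46 °C lysates, with spike-in, 3 members rose and 6 fell, against 13.8% and 14.2% of all mRNAs, and none of these 9 changed by more than 0.18 log2 units. Without the first 46 °C lysate the count there was 3, and DESeq2 gave 5.

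In Polysome-seq, 22 members fell and 5 rose at 42 °C, where 34.4% of all mRNAs fell and 38.5% rose. CYB5 had 90.9 and 65.2 TPM at 42 °C, against 1039 and 963 TPM at 30 °C (-3.08 ± 0.15, adjusted p = 3.68e-07). ERG13 (YML126C, chromosome XIII, 19060 to 20535, minus strand) had 64.3 and 75.5 TPM at 42 °C, against 647 and 622 TPM at 30 °C (-2.59 ± 0.13, adjusted p = 4.03e-07). ERG7 (-1.79), MVD1 (-1.59), ERG2 (-1.47) and the farnesyl pyrophosphate synthase ERG20 (-1.42) were next, and all 9 mevalonate genes fell. The median was -0.44 over the 11 genes of the late route and -1.17 over the 9 mevalonate genes, a difference that was not tested. The 5 that rose were both transcription factors, both acyltransferases and ERG5. ECM22 (YLR228C, chromosome XII, 600019 to 602463, minus strand) had 24.4 and 22.1 TPM at 42 °C, against 9.14 and 10.2 TPM at 30 °C (1.85 ± 0.10, adjusted p = 5.27e-07). ARE2 had 125.8 and 118.3 TPM at 42 °C, against 71.8 and 72.97 TPM at 30 °C (1.34 ± 0.10). UPC2 rose by 0.89, whereas ERG5 (0.54) and ARE1 (0.46) were lower as log2 TPM ratios (-0.052 and -0.13), and 27 of 30 members were lower on that scale.

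At 46 °C in Polysome-seq fewer members were called: 6 rose and 4 fell, against 19.8% and 18% of all mRNAs, and as TPM ratios 9 of 30 were higher and 21 lower. ERG5 had 415 and 501 TPM at 46 °C, against 281 and 266 TPM at 30 °C (0.91 ± 0.14, adjusted p = 0.00168), ARE2 rose by 0.73 and UPC2 by 0.52. The 4 that fell were the mevalonate genes ERG13 (-0.49), ERG20 (-0.48), ERG10 (-0.38) and MVD1 (-0.34); leaving out the first or second 30 °C lysate left 3 and 2 calls, all higher, and leaving out the second 46 °C lysate left 6. CYB5 stood at 747 and 675 TPM at 46 °C, against 1039 and 963 TPM at 30 °C and passed in neither direction. Sed-seq and Polysome-seq cells were heated in different ways, and the difference between the experiments was not tested.

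**Figure D2:**
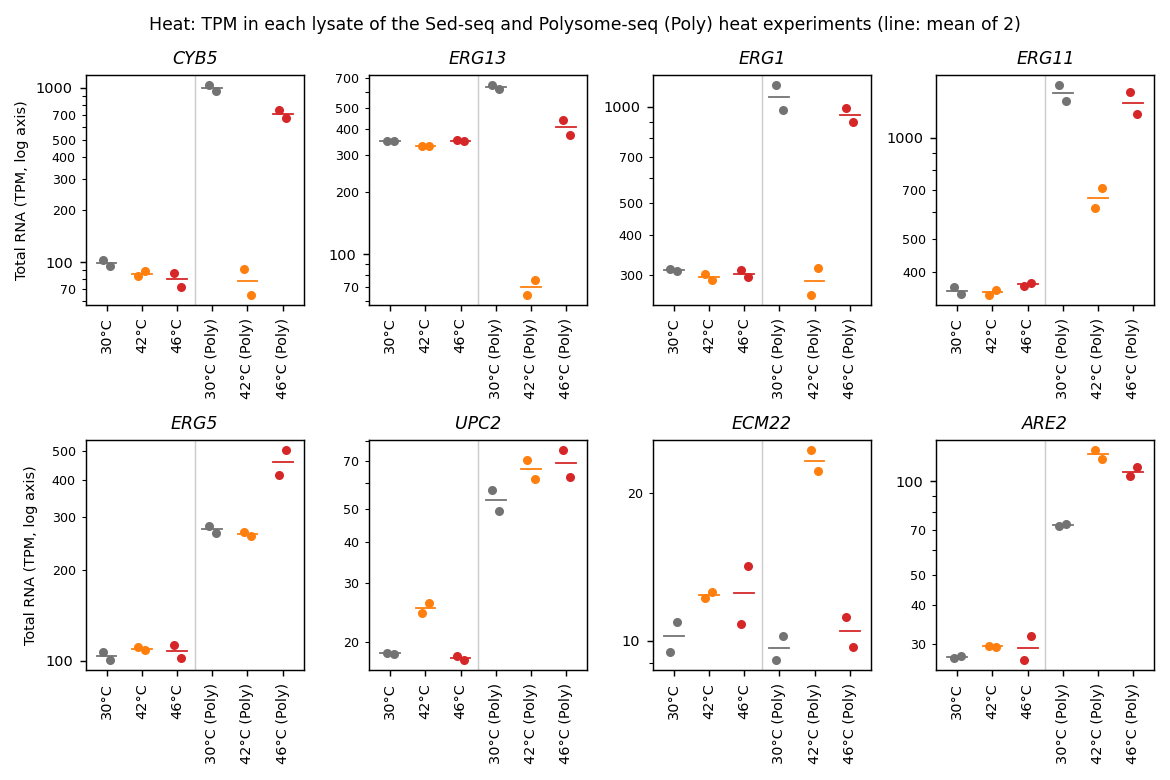
Total RNA (TPM, log axis) of members in each lysate at 30 °C, 42 °C and 46 °C in the Sed-seq and the Polysome-seq (Poly) heat experiments; points are lysates and lines the mean of 2. CYB5 was at 90.9 and 65.2 TPM at 42 °C in Polysome-seq, against 1039 and 963 TPM at 30 °C, and at 83.3 and 88.8 TPM at 42 °C in Sed-seq, against 102.6 and 95.2 TPM at 30 °C.

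DTT lowered nearly the whole pathway. Of the members 24 fell and 2 rose, where 26.7% of all mRNAs fell and 24.9% rose, and the median member stood at -0.81. CYB5 had 93.8 and 99.1 TPM in DTT, against 727 and 708 TPM in mock lysates (-3.16 ± 0.062, adjusted p = 7.92e-11). ERG11 had 175 and 186 TPM in DTT, against 1119 and 1239 TPM in mock lysates (-2.98 ± 0.062, adjusted p = 1.23e-10). ERG5 had 46.2 and 43.95 TPM in DTT, against 280.4 and 282 TPM in mock lysates (-2.92 ± 0.05). ERG1 (YGR175C, chromosome VII, 846933 to 848423, minus strand) fell by 2.32, HMG1 and ERG28 by 1.79 and 1.79, and ERG25 and ERG3 by 1.50 and 1.41. The median was -0.79 over the 9 mevalonate genes and -0.97 over the 11 of the late route. The members that rose were ARE1 (0.44), the acyltransferase that also esterifies sterol intermediates, and HMG2, which had 82.9 and 93.8 TPM in DTT, against 61.5 and 65.01 TPM in mock lysates (0.21 ± 0.062). All 26 calls kept their sign as TPM ratios.

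Azide, which blocks cytochrome oxidase and drains ATP, lowered most genes of synthesis at 0.5% and raised both acyltransferases. At 0.5% azide 21 members fell and 5 rose, where 34.5% of all mRNAs fell and 36.8% rose; all 9 mevalonate genes were among those that fell. ERG11 had 362 and 421 TPM in 0.5% azide, against 1001 and 1009 TPM in mock lysates (-1.63 ± 0.077, adjusted p = 4.04e-08). ERG1 (-1.63), ERG10 (-1.42), ERG13 (-1.36) and MVD1 (-1.31) fell by comparable amounts. The 5 that rose were ARE2, UPC2, ECM22, ARE1 and ERG5. ARE2 (YNR019W, chromosome XIV, 665339 to 667267, plus strand) had 208 and 226 TPM in 0.5% azide, against 78.3 and 79.95 TPM in mock lysates (1.18 ± 0.066, adjusted p = 1.22e-07). UPC2 had 74.3 and 79.6 TPM in 0.5% azide, against 33.7 and 36.2 TPM in mock lysates (0.86 ± 0.068). As TPM ratios HMG1, ERG8 and ERG26, which fell by 0.17 to 0.25, stood at 0.019 to 0.10, and 12 of 30 members were higher and 18 lower. Fewer members were called in 0.8% azide: 4 members rose and 5 fell in Sed-seq, against 21.3% and 19.1% of all mRNAs, and 9 rose and 2 fell in Polysome-seq, against 23.2% and 20.8%. Without the second mock lysate the Polysome-seq count was 7. ARE2 rose in both, by 0.75 and 0.38, and so did ERG5, by 0.58 and 0.44. ERG10 fell in both, by 0.35 and 0.19.

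The Totals of the 7.5% ethanol Polysome-seq experiment repeated the treatment in other lysates. There 12 members fell and 3 rose, against 29.4% and 30.5% of all mRNAs (as TPM ratios 1 of 30 was higher and 29 lower), and 7 of the 12 were again mevalonate genes, led by MVD1, which had 128.5 and 140.1 TPM at 7.5% ethanol, against 275 and 291 TPM in mock lysates (-0.81 ± 0.069, adjusted p = 2.58e-05). UPC2, with 21.2 and 21.3 TPM at 7.5% ethanol, against 22.98 and 22.9 TPM in mock lysates, passed in neither direction here; the difference from the Sed-seq lysates was not tested. The 3 that rose were ARE2 (0.63), ERG1 (0.24) and ERG26 (0.19), of which ERG1 and ERG26 were lower as log2 TPM ratios (-0.031 and -0.077).

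Blocking translation also lowered most members relative to other mRNAs. After eIF3b depletion 23 fell and 5 rose, against 38.7% and 41.8% of all mRNAs. ERG3 had 126.4 and 105.4 TPM in depleted cells, against 342 and 321 TPM in mock-treated cells (-2.29 ± 0.10, adjusted p = 1.46e-09), and ERG6 (-1.83) and ERG25 (-1.73) followed. The phosphomevalonate kinase ERG8 went the other way, with 122.8 and 118.8 TPM in depleted cells, against 43.5 and 44.8 TPM in mock-treated cells (0.68 ± 0.066), and ECM22 rose by 0.50. The pool itself shifted here, and ERG9, ERG24, ERG26, ERG27, HMG1 and YEH2, which fell after TMM scaling, stood at 0.089 to 0.47 as log2 TPM ratios, on which 13 of the 30 members were higher and 17 lower.

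After eIF4E depletion 23 members fell and 3 rose, against 29.2% and 30.7% of all mRNAs. ERG28 had 62.97 and 56.1 TPM in depleted cells, against 121.1 and 118.8 TPM in mock-treated cells (-1.28 ± 0.12, adjusted p = 8.95e-07), whereas its value after eIF3b depletion was -0.19, which passed in neither direction. ERG8, ERG7 and ARE1 rose, by 0.54, 0.39 and 0.25. ERG1 and ERG27 fell by 0.26 and 0.22 and were higher as TPM ratios (0.038 and 0.069), on which 9 of 30 members were higher and 21 lower. CHX at 30 °C lowered 20 members and raised 2, ECM22 and ERG5, against 28.8% and 30.8% of all mRNAs, with a median of -0.57; as TPM ratios 14 of 30 were higher and 16 lower. ERG28 had 342 and 386 TPM under CHX, against 475 and 611 TPM in mock cells (-1.09 ± 0.11, adjusted p = 2.17e-04). ECM22 had 22.04 and 21.1 TPM under CHX, against 11.4 and 10.00 TPM in mock cells (0.50 ± 0.12). ERG11, ERG3, ERG24, HMG2 and ARE2 fell by 0.35 to 0.44 under CHX and stood at 0.072 to 0.16 as TPM ratios. At 46 °C, CHX against mock gave 23 lower and 1 higher, where 55.8% of all mRNAs differed, and 10 of the 23 were higher as TPM ratios, on which 16 of 30 members were higher and 14 lower.

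Few mRNAs of any kind changed in Total abundance when these cells were heated, and the members were no exception. No member was called in CHX-experiment mock cells at 46 °C against 30 °C or under CHX at 46 °C against CHX at 30 °C, where 0.991% and 0.142% of all mRNAs changed in edgeR; 1 and 0 members had an unadjusted p under 0.05, and DESeq2 called 0 in both. In mock-treated eIF3b-strain cells at 42 °C and 46 °C, where 0.976% and 1.38% of all mRNAs changed, 0 members were called (2 unadjusted in each, 0 by DESeq2, and 1 in each with the replicate as a block). In eIF3b-depleted cells the counts were 0 and 0 against 1.24% and 0.837%, with 2 unadjusted in each and 0 by DESeq2. In mock-treated eIF4E-strain cells they were 0 and 0 against 2.05% and 3.3%, with 3 and 4 unadjusted and 0 by DESeq2. In eIF4E-depleted cells they were 0 at 42 °C (3 unadjusted, 0 by DESeq2) and 1 at 46 °C, against 4.21% and 6.69%; the 1 was ERG9, which fell, and the call was absent without any 1 of the 4 lysates and with DESeq2.

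**Figure D3:**
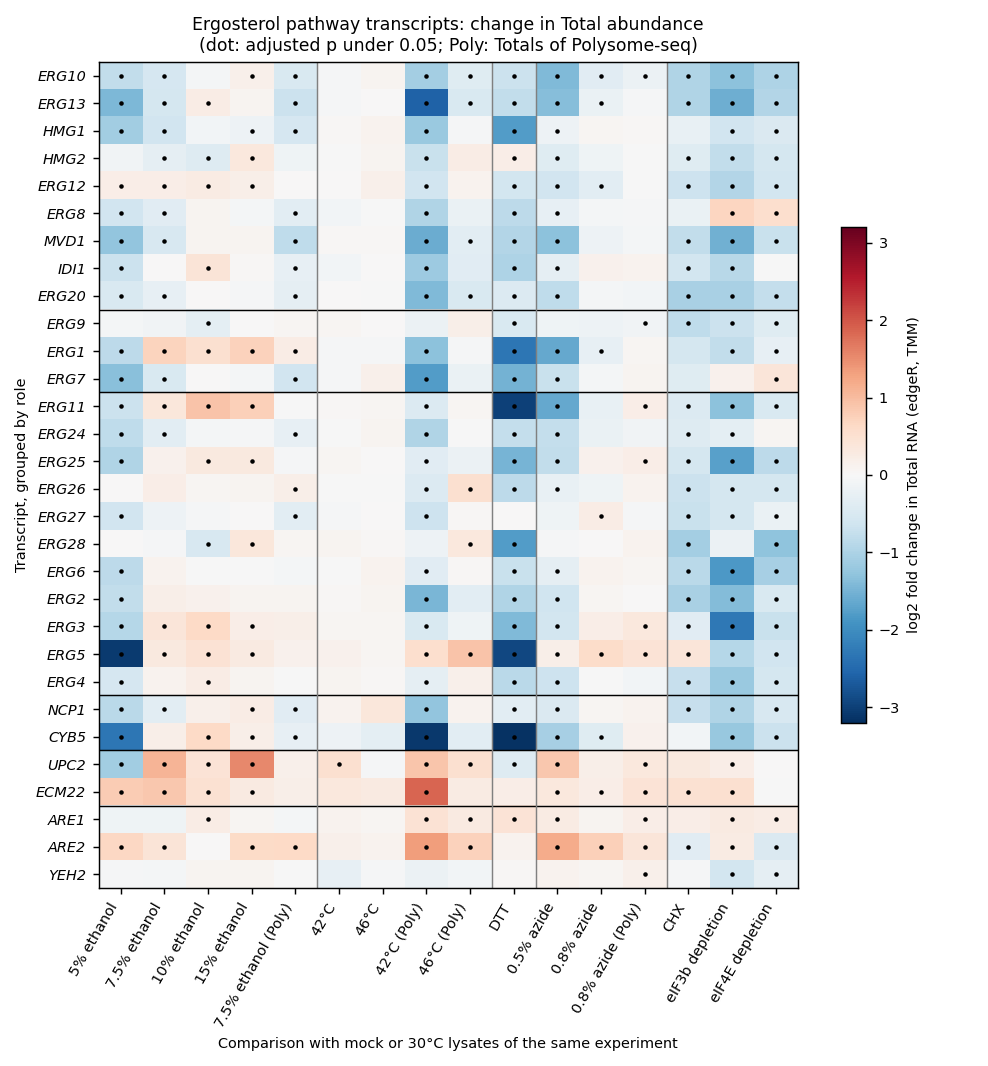
Log2 fold change in Total RNA (edgeR, TMM; colour scale) of the 30 members, grouped by role, in each comparison with the mock or 30 °C lysates of the same experiment; dots mark an adjusted p under 0.05 and Poly marks Totals of Polysome-seq. Blue fills the columns of 5% ethanol (21 of 30 fell), DTT (24) and 42 °C Polysome-seq (22), while the Sed-seq heat columns hold 1 dot at 42 °C and 0 at 46 °C.

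Paralogs of the pathway parted in several treatments. Calls were counted over 17 comparisons of a treatment with its control, some of which share control lysates. They rest on TMM scaling and include the rises and falls named above that turned as TPM ratios. Heat, 7.5% ethanol and 0.8% azide each enter from more than 1 experiment. Calls per gene were not counted over all mRNAs, so these counts are not set against other genes. Outside the Sed-seq heat experiment, whose shares cover both directions, 13.1% to 41.8% of all mRNAs rose and 10.1% to 39% fell in a comparison. ECM22 rose in 10 and fell in 0, ARE1 rose in 8 and fell in 0, and ARE2 rose in 10 and fell in 2. UPC2, the paralog of ECM22, rose in 9 and fell in 3; the pair had opposite signs at 5% ethanol, where ECM22 had 18.3 and 18.4 TPM in ethanol, against 10.9 and 11.9 TPM in mock lysates and UPC2 5.33 and 4.85 TPM in ethanol, against 12.6 and 11.2 TPM in mock lysates. The HMG-CoA reductases HMG1 and HMG2, which carry out the rate-limiting step of the mevalonate segment, parted in DTT, where HMG1 fell, with 27.6 and 27.7 TPM in DTT, against 78.9 and 79.5 TPM in mock lysates, and HMG2 rose. They parted at 15% ethanol as well. Among the enzymes of synthesis ERG5 rose most often, with 10 rises and 4 falls. Its rises in 7.5% ethanol in Sed-seq and at 42 °C in Polysome-seq stood at -0.086 and -0.052 as log2 TPM ratios. ERG24, ERG6, ERG2, ERG9, ERG20, MVD1 and HMG1 rose in none of the 17 and fell in 7 to 10. YEH2, a sterol ester hydrolase, rose in 1 and fell in 2. The open reading frame of ARE1 overlaps YCR050C on the opposite strand, so its value rests on strand-specific counting.

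Genes of sterol transport, sterol esters and related branches, which are not among the 30, were counted beside them. Of all mRNAs 33.8% rose and 39% fell at 5% ethanol, 13.1% and 10.1% at 15%, 24.9% and 26.7% in DTT, and 38.5% and 34.4% at 42 °C in Polysome-seq. Of 9 genes of regulation and turnover 3 rose and 5 fell at 5% ethanol, and 7 rose and 2 fell at 42 °C in Polysome-seq. Of 17 sterol transport genes 7 rose and 6 fell at 5% ethanol, shares near those of all mRNAs, 6 rose and 6 fell at 15%, and 7 rose and 5 fell in DTT. The oxysterol-binding protein homologue HES1 changed by 1.66 at 15% ethanol and -2.27 at 42 °C in Polysome-seq, and OSH2 by 2.66 there. The sterol importer AUS1 rose by 1.82 and ROX1, a repressor of hypoxic genes, by 2.75 in 0.5% azide; ROX1 fell by 1.33 in DTT. DAP1, a haem-binding protein that stabilises Erg11, rose by 1.49 at 7.5% ethanol and 2.50 at 42 °C in Polysome-seq, and fell by 1.62 in DTT. Of 4 genes of sterol esters and acetates, the ester hydrolase YEH1 (-2.66) and the acetyltransferase ATF2 (-2.32) fell at 5% ethanol, and both fell at 42 °C in Polysome-seq (-2.39 and -2.18). In each of these comparisons 1 of the 4 rose. In 0.5% azide 4 rose and 0 fell, where 36.8% of all mRNAs rose and 34.5% fell. In the Sed-seq lysates of 0.8% azide 3 rose and 0 fell, against 21.3% and 19.1%. Of 5 genes of isoprenoid branches (such as dolichol and ubiquinone) 3 rose and 0 fell in DTT, where 24 of the 30 members fell.

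Sedimentation was read as the natural-log odds of pSup minus the running mean of mRNAs of like length in the same lysate, since longer mRNAs sediment more. A value above 0 means that a transcript stays in the supernatant more than others of its length. In 22 unstressed lysates the soluble mevalonate enzymes as a group sat above their length class: the median over their 7 transcripts was between 0.12 and 0.44 in every lysate. MVD1 was near its class, with a median of 0.034 and a range of -0.13 to 0.24. Of all 30 members 20 had a median above 0, among them all 7 soluble ones. The highest median was that of the membrane protein ERG26 (0.64). The median over the 21 membrane and lipid-droplet proteins ran from -0.85 to 0.57. Much of that range lay between replicates of 1 group, with membrane medians of 0.57 and -0.12 in the 2 unstressed lysates of the heat experiment and -0.85 and -0.19 in those of the CHX experiment, while the soluble medians were 0.28 and 0.26 and 0.44 and 0.21. ERG4, the last reductase of the pathway, ranged from -1.45 to 0.74 and the sterol reductase ERG24 from -1.47 to 0.65. Over these lysates 8 of 30 members had an SD above 0.305, the 95th percentile of 4786 mRNAs whose median SD was 0.151: ERG4, ERG24, ERG11, ERG25, HMG2, ERG5, HMG1 and NCP1. Other membrane or lipid-droplet members did not share it, and ERG1, ERG6, ERG7 and ERG9 had SDs of 0.119 to 0.140. The 2 transcription factors had the smallest SDs of the 30 (0.0739 for ECM22 and 0.0853 for UPC2). In the 7 lysates of reporter strains the soluble median was 0.28 to 0.39 and the membrane median -0.26 to 0.27.

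**Figure D4:**
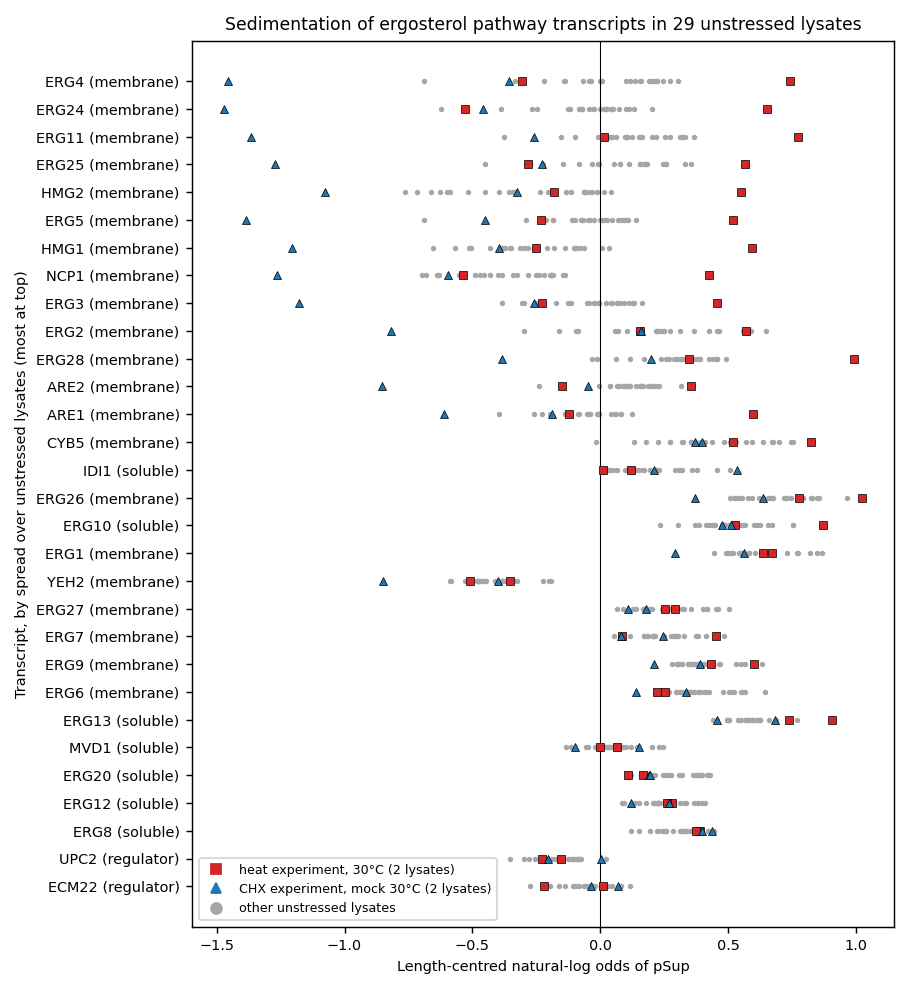
Length-centred natural-log odds of pSup of each member in 22 unstressed lysates and the 7 of reporter strains (points), ordered by SD over the 22; red squares mark the 30 °C lysates of the heat experiment and blue triangles the mock lysates of the CHX experiment. The membrane proteins ERG4 and ERG24 span -1.45 to 0.74 and -1.47 to 0.65, while ECM22 and UPC2 have the smallest SDs.

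All 30 members had a lower pSup in both treated lysates than in both control lysates at 15% ethanol, 42 °C and 46 °C. The median pSup over the members was 0.495 and 0.484 in the 2 lysates at 15% ethanol, against 0.933 and 0.918 in mock lysates, and that over all mRNAs 0.375 and 0.363, against 0.917 and 0.898. At 46 °C the median over members was 0.261 and 0.265, against 0.925 and 0.890 at 30 °C, and that over all mRNAs 0.201 and 0.218, against 0.886 and 0.884. Relative to mRNAs of their length, tested with limma, 14 members rose and 3 fell at 15% ethanol, where 40.9% of all mRNAs changed in either direction. The shares given for pSup here and below cover both directions, so they do not show how many mRNAs rose. The median member changed by 0.17 and the median mRNA by -0.020. Of the 21 membrane members 12 rose, and of the 7 soluble ones 2. ERG4 (YGL012W, chromosome VII, 472855 to 474276, plus strand) had 1.19 and 1.15 at 15% ethanol, against 0.19 and 0.0015 in mock lysates (difference 1.07 ± 0.075, adjusted p = 7.99e-04). ERG24 had 0.82 and 0.87 at 15% ethanol, against -0.027 and -0.27 in mock lysates (0.99 ± 0.089, adjusted p = 0.00125). HMG1 (0.86), ERG5 (0.81), ERG3 (0.76), ERG25 (0.75) and ERG11 (0.73) rose too, and ERG8 (-0.40), CYB5 (-0.39) and ERG6 (-0.24) fell. All 8 members named above for their spread over unstressed lysates were among the 14 that rose. The part of that spread in this result was not tested.

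At 5% ethanol 0 members were called by limma, where 0.537% of all mRNAs changed (4 members at an unadjusted p under 0.05). At 7.5% 8 rose and 3 fell, against 44.6%; the count was 6 without the first or the second mock lysate and 7 without the second ethanol lysate. At 10% ERG2 (0.64) and ERG5 (0.58) rose, against 12.4%, and neither was called without the first mock, the second mock or the second 10% lysate. ERG2 had 0.74 and 0.83 at 10% ethanol, against 0.059 and 0.24 in mock lysates. In DTT 0 members were called, where 0% of all mRNAs changed and 3 members had an unadjusted p under 0.05.

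For heat the pSup results depended on which unstressed lysate was used. At 42 °C 0 members were called by limma (3 unadjusted), where 1.43% of all mRNAs changed, but 10 fell when the second 30 °C lysate was left out. At 46 °C UPC2 (0.39) and ERG20 (0.34) rose, against 10.2% of all mRNAs; 3 rose and 11 fell without the second 30 °C lysate, 4 rose and 0 fell without the first, and 0 were called without either 46 °C lysate, with the replicate as a block or with only the 46 °C and 30 °C lysates in the fit. ERG24 had 0.15 and -0.26 at 46 °C, against 0.65 and -0.53 at 30 °C, so that the 2 unstressed lysates enclosed the heated ones. ERG20 had 0.43 and 0.53 at 46 °C, against 0.17 and 0.11 at 30 °C, with no overlap. In the spike-in lysates 8 rose and 3 fell at 46 °C, against 29.4% of all mRNAs, and 3 of the 8 were soluble mevalonate enzymes (ERG10, ERG20 and MVD1); 4 and 6 calls, all higher, were left without the first or second 46 °C lysate. ERG10 had 0.81 and 0.84 at 46 °C, against 0.45 and 0.23 at 30 °C (0.48 ± 0.09, adjusted p = 0.0124). In the CHX experiment's mock cells 3 rose and 1 fell at 46 °C, against 9.01%; 9 rose and 2 fell without the second 30 °C lysate, and 0 were called without any of the other 3. With the replicate as a block 9 were called there, and with only those groups in the fit 1. Under CHX, 46 °C against 30 °C gave 0 calls (9 unadjusted, 0.694% of all mRNAs; 3 with the replicate as a block), CHX against mock at 46 °C gave 0 (1 unadjusted, 4.23%) and CHX against mock at 30 °C gave 0 (4 unadjusted, 0%; 1 without the second mock lysate).

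MVD1, ERG10 and the membrane protein ERG1 fell in pSup relative to their length in both doses of azide and after both depletions. In 0.5% azide 10 members fell and 1 rose, where 25.4% of all mRNAs changed, and 4 of the 10 were soluble. MVD1 had -0.45 and -0.45 in 0.5% azide, against 0.14 and 0.12 in mock lysates (-0.58 ± 0.07, adjusted p = 0.0138). With any 1 of the 4 lysates left out no member was called there. In 0.8% azide 3 fell and 2 rose, against 13.9%; the count was 2 without the first azide lysate and 0 without the second mock lysate. MVD1 stood at -0.34 and -0.33 in 0.8% azide, against 0.046 and 0.24 in mock lysates. After eIF3b depletion at 30 °C 8 members fell and 6 rose, against 39.2% of all mRNAs, and 8 were called without either depleted lysate. MVD1 had -0.52 and -0.59 in depleted cells, against 0.20 and 0.23 in mock-treated cells (-0.77 ± 0.064, adjusted p = 1.05e-04). ERG1 had 0.10 and -0.082 in depleted cells, against 0.87 and 0.77 in mock-treated cells (-0.81 ± 0.085). HMG2 had 0.049 and 0.048 in depleted cells, against -0.60 and -0.72 in mock-treated cells (0.71 ± 0.077), the largest rise. After eIF4E depletion 6 fell and 1 rose, against 8.28%, among them ERG13 (-0.43) and MVD1 (-0.42), with 1 to 3 calls left when any 1 lysate was omitted and 0 with only those groups in the fit.

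In cells of the depletion strains heated to 46 °C more of the called members rose than fell. The shares of all mRNAs given in this paragraph cover both directions, so they do not show how many mRNAs rose. In depleted cells of both strains the share of members called at 46 °C was close to that of all mRNAs. At 46 °C against 30 °C in eIF3b-depleted cells 13 rose and 4 fell, against 53.5% of all mRNAs. ARE1 had 1.58 and 1.62 at 46 °C, against 0.069 and -0.22 at 30 °C (1.67 ± 0.10, adjusted p = 1.07e-06). ERG10 had 1.56 and 1.50 at 46 °C, against 0.32 and 0.10 at 30 °C (1.32 ± 0.077, adjusted p = 1.08e-06). Both groups were far apart for each. CYB5 (-0.59), the isopentenyl diphosphate isomerase IDI1 (-0.53), ERG5 (-0.43) and ERG8 (-0.20) fell. In mock-treated cells of that strain 7 rose and 1 fell at 46 °C, against 22.1%, with ERG2 highest (0.75); without the first 30 °C, the second 30 °C or the second 46 °C lysate the counts were 5, 5 and 4, and with only those groups in the fit 4. In the eIF4E strain 9 rose and 1 fell in depleted cells, against 34.7%, and 9 rose and 2 fell in mock-treated cells, against 23.4%; in mock-treated cells the count was 5 without the first 30 °C or first 46 °C lysate and 7 without the second 46 °C lysate, and 5 with only those groups in the fit. At 42 °C, 11 rose and 2 fell in eIF3b-depleted cells, 2 rose and 2 fell in mock-treated cells of that strain, 8 rose and 2 fell in eIF4E-depleted cells and 3 rose and 0 fell in mock-treated cells of that strain, against 40.7%, 11.9%, 28.2% and 13.1% of all mRNAs. With any 1 lysate left out, 10 to 12 members were called in eIF3b-depleted cells, 4 to 6 in eIF4E-depleted cells, 1 to 2 in mock-treated cells of the eIF3b strain and 1 in those of the eIF4E strain. Whether the heat response of pSup differed between depleted and mock-treated cells was not tested.

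Ribosome association was tested as the interaction of fraction and condition in edgeR, with the polysome pool over Total for heat and all ribosome-bound RNA over Total for ethanol and azide, so that the heat values and the others measure different things. Relative to other mRNAs, 10 members rose and 13 fell at 46 °C, against 31.1% and 23.1% of all mRNAs, and all 10 that rose were membrane or lipid-droplet proteins, while 6 further membrane members (HMG1, HMG2, ERG7, ERG2, NCP1 and ARE1), 5 of the 7 soluble enzymes and both transcription factors fell; the difference between soluble and membrane members was not tested. MVD1 (YNR043W, chromosome XIV, 701895 to 703085, plus strand) had a TPM ratio of polysome to Total of 0.251 and 0.332 at 46 °C, against 1.07 and 1.1 at 30 °C (log2 difference -1.16 ± 0.17, adjusted p = 2.72e-04). ERG13 (-1.10 ± 0.19), the cytochrome P450 reductase NCP1 (-1.09 ± 0.15) and ERG8 (-1.05 ± 0.13) fell nearly as far. ERG5 had a ratio of 1.25 and 1.17 at 46 °C, against 0.994 and 1.01 at 30 °C (1.03 ± 0.18, adjusted p = 8.14e-04). ERG26, the C-3 sterol dehydrogenase of the C-4 demethylation complex, had 1.96 and 1.72 at 46 °C, against 1.60 and 1.55 at 30 °C (0.97 ± 0.19). The fitted difference is centred by TMM within each fraction, and the plain ratio is not: over all mRNAs the plain log2 ratio changed by a median of -0.59 at 46 °C, -0.41 at 42 °C, 0.044 in ethanol and 0.19 in azide. ARE2, CYB5, ERG6, ERG9, ERG24 and ERG27 rose at 46 °C by 0.46 to 0.69 in the fit. On the plain scale they stood at -0.29 to -0.068, where 4 of 30 members were higher and 26 lower. The means of ERG1, ERG5, ERG26 and ERG28 were higher on both scales. The plain ratios of ERG1 overlapped, with 1.39 and 1.34 at 46 °C, against 1.30 and 1.38 at 30 °C. Those of ERG28 overlapped too, with 1.13 and 1.05 at 46 °C, against 0.992 and 1.06 at 30 °C. The medians were -0.90 over the 7 soluble and 0.33 over the 21 membrane members, and 0.17 over all mRNAs. Without the first or the second 30 °C lysate 13 calls were left in either case.

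At 42 °C 4 members rose and 3 fell, against 9.63% and 10.3% of all mRNAs, and the count was 0 without the first 30 °C, the second 30 °C or the second 42 °C lysate and 4 without the first 42 °C lysate. With mono- and disome reads added to the polysome pool 1 member was called, and with only the 42 °C and 30 °C lysates in the fit 11 were. ECM22, which rose in abundance at 42 °C, had a ratio of 0.337 and 0.297 at 42 °C, against 0.821 and 0.716 at 30 °C (-0.82 ± 0.17, adjusted p = 0.00709). ARE1 fell (-0.64), while its paralog ARE2 rose (0.51). The plain ratio of ARE2 hardly differed, with 1.00 and 1.01 at 42 °C, against 0.994 and 0.984 at 30 °C. On the plain scale 7 of 30 members were higher and 23 lower at 42 °C, and the 7 called members kept their sign. In 7.5% ethanol 3 members fell and 0 rose, against 1.75% and 0.159% of all mRNAs: ERG13 (-0.75), ERG2 (-0.64) and ERG20 (-0.59). DESeq2 called 5, all lower, and 1 call was left without either mock lysate and 0 without either ethanol lysate. ERG13 had 0.568 and 0.522 at 7.5% ethanol, against 0.920 and 0.909 in mock lysates. In 0.8% azide 2 members rose and 4 fell, against 8.49% and 7.67%, and 3 calls were left without the first mock lysate. ERG5 had 1.57 and 1.57 in 0.8% azide, against 0.852 and 0.835 in mock lysates (0.73 ± 0.061, adjusted p = 6.58e-06). ERG2 had 0.618 and 0.633 in 0.8% azide, against 0.907 and 0.919 in mock lysates (-0.72 ± 0.062).

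**Figure D5:**
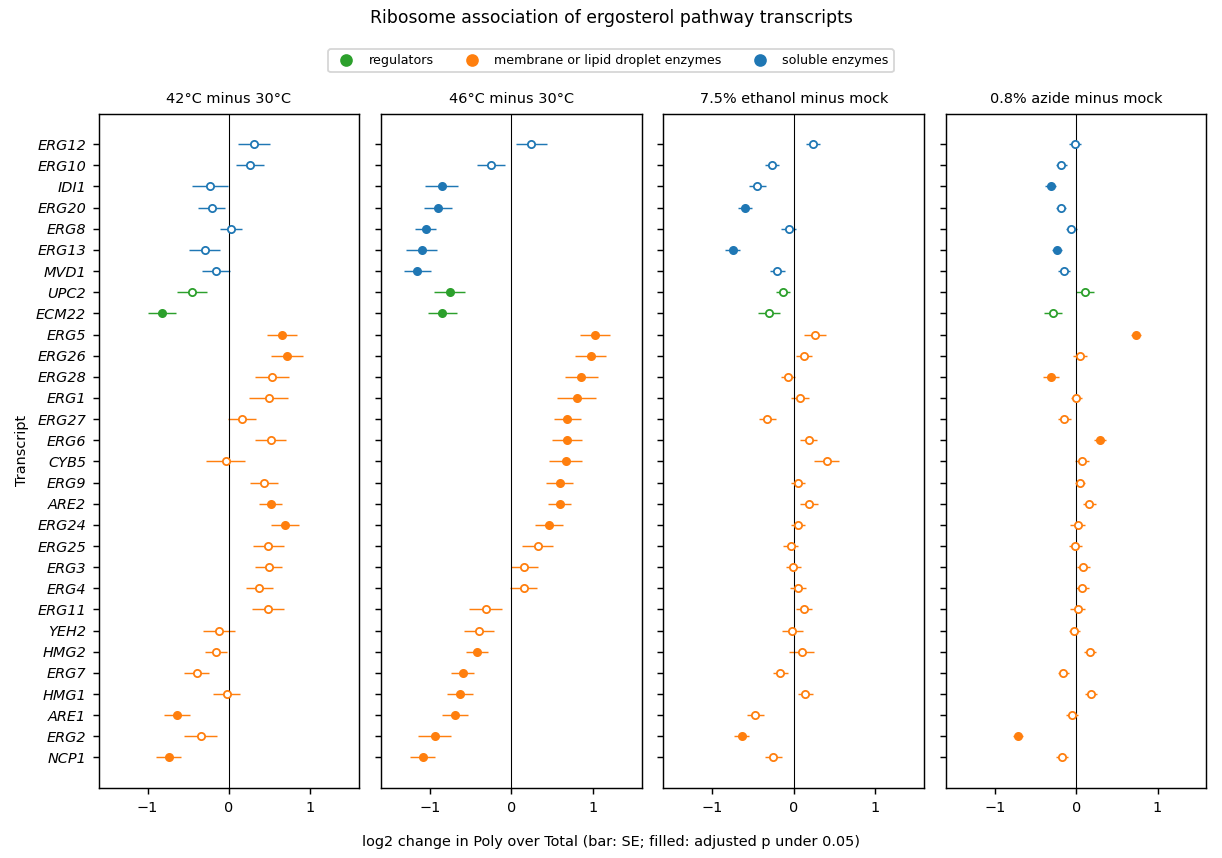
Log2 change in ribosome-bound over Total RNA of each member (the polysome pool for heat, all bound fractions for ethanol and azide; edgeR interaction; bars are SE, filled points have an adjusted p under 0.05; blue, soluble; orange, membrane or lipid droplet; green, transcription factors) in the 4 Polysome-seq comparisons. At 46 °C the soluble enzymes MVD1 and ERG13 lie at -1.16 and -1.10 and the membrane proteins ERG5 and ERG26 at 1.03 and 0.97.

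Occ was between 0.812 and 0.952 over the members in unstressed cells, as the median of 6 lysates, where the median mRNA had 0.871. Tested with limma on the log-odds scale, 17 members fell and 3 rose at 42 °C (against 54.9% and 3.04% of all mRNAs; 11 fell and 0 rose without the second 30 °C lysate), and 14 fell and 2 rose at 46 °C (against 19.3% and 28%). In 7.5% ethanol 22 fell and 1 rose (against 47.9% and 2.77%), and in 0.8% azide 25 fell and 2 rose (against 58.7% and 13.2%). The median member changed by -0.55, -0.23, -0.90 and -1.17 in these 4 comparisons, and the median mRNA by -0.46, 0.11, -0.38 and -0.58. Relative to the median mRNA 12 rose and 11 fell at 42 °C, and 5 rose and 19 fell in azide. RNA that pelleted in the gradient under stress is in neither the bound nor the free share, and its part in these changes was not tested. In the heat and ethanol experiments limma set the same spread for mRNAs of like mean level, so no p-value is given for them, and the counts called there rest on that shared spread. ERG13 had an Occ of 0.526 and 0.550 at 46 °C, against 0.899 and 0.916 at 30 °C (log-odds difference -2.13 ± 0.18). In 7.5% ethanol it had 0.661 and 0.655 in ethanol, against 0.969 and 0.968 in mock lysates (-2.78 ± 0.16). ERG20 had 0.511 and 0.514 in 0.8% azide, against 0.945 and 0.918 in mock lysates (-2.58 ± 0.17, adjusted p = 7.21e-06). The medians over the 7 soluble members were -1.68 at 46 °C, -1.98 in ethanol and -2.09 in azide, and those over the 21 membrane members -0.048, -0.69 and -1.13. ERG5 was higher at 42 °C, at 46 °C and in 7.5% ethanol, with 0.941 and 0.951 at 46 °C, against 0.868 and 0.883 at 30 °C (0.91 ± 0.19). In 0.8% azide ERG5 passed in neither direction (-0.36 ± 0.16). ERG24 and ERG26 also rose at 42 °C, and YEH2 at 46 °C. In 0.8% azide the members that rose were UPC2, with 0.879 and 0.886 in azide, against 0.811 and 0.814 in mock lysates (0.55 ± 0.14), and YEH2 (0.51 ± 0.15), which had been among the members with the lowest Occ in unstressed cells.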

How the data were processed

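The authors trimmed reads with Trim Galore 0.6.10 and quantified them with kallisto 0.48.0 against build R64. The later Sed-seq experiments with unique molecular identifiers (CHX, DTT, 0.5% azide, 15% ethanol and both depletions) and the heat Polysome-seq were deduplicated with UMI-tools 1.1.4, whereas no such step is stated for the others, so PCR copies count as reads there. The deposited estimated counts per transcript were rounded, and the deposited TPM values were rescaled to sum over 5906 nuclear mRNAs; rRNA and other RNAs were left out. The authors deposited pSup and Occ as fractions, pSup from a fit of Total to supernatant plus pellet and Occ from S. pombe spike-in scaling. A wrong mixing ratio in the pSup fit adds 1 constant to all log-odds of a lysate, which centring removes.

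Total counts were tested with edgeR 4.0.16 (TMM, filterByExpr, quasi-likelihood) in R 4.3.3 within each experiment, with all of its groups in 1 fit, and ribosome association as the interaction of fraction and condition. pSup was used where supernatant and pellet held at least 20 counts in every lysate of an experiment. Its log-odds were centred on the mean of at least 10 mRNAs whose log transcript length lay nearby (a window as wide as 0.02 of its full range) and tested with limma 3.58.1, as was the log-odds of Occ. P-values were Benjamini-Hochberg adjusted over all mRNAs of a comparison, with a threshold of 0.05. DESeq2 1.42.0, median-of-ratios scaling, other filters, a replicate block and leaving out each lysate were tried. Scripts were tested on simulated data. Groups come from the sample titles. Genes given values in every lysate were those with the largest called rises and falls of a comparison (up to 6 each), paralog pairs and oxygen-using steps. Same-numbered lysates deviated together in Sed-seq Total libraries of the heat (lowest correlation 0.14), CHX (0.36) and eIF3b (0.12) experiments. The correlation was 0.22 in 0.8% azide and 0.21 with spike-in, from 1 pair of groups each. It was 0.0017 to 0.33 in the eIF4E experiment. The reported fits use no pairing, and the replicate block is given only as an alternative setting. The members and lists were chosen with earlier results of these data known.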

Additional observations from a re-analysis of the deposited data

How the results depend on the processing

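Of the counts of called members, 312 values under other settings stayed within 1.5 times the reported count and 34 did not, and with a lysate left out 214 did and 74 did not. For single named members 1615 values kept direction and side of the threshold, the rest lost the threshold, and no fitted value changed sign; without a lysate 1054 kept both and 338 lost the threshold. The cause of these shifts was not tested. Counts below stand before the reported count, which follows "for". With the replicate number as a block, the count for abundance was 2 for 1 at 42 °C, 14 for 9 in 0.8% azide, 1 for 0 at 42 °C and at 46 °C in mock-treated eIF3b-strain cells, and 1 for 0 and 2 for 0 at 42 °C and 46 °C in mock-treated eIF4E-strain cells; that for pSup was 0 for 2 at 46 °C, 6 for 11 in 0.5% azide, 11 for 5 in 0.8% azide, 9 for 4 at 46 °C in mock cells of the CHX experiment and 3 for 0 at 46 °C under CHX; and that for ribosome association was 6 for 3 in ethanol and 10 for 6 in azide. In experiments where the numbers do not pair the lysates, they share only a number. With only the groups compared in the fit, abundance gave 3 for 1 at 42 °C and 0 for 1 at 46 °C after eIF4E depletion, pSup gave 0 for 2 at 46 °C, 1 for 4 at 46 °C in the CHX experiment's mock cells, 1 for 4 and 4 for 8 at 42 °C and 46 °C in mock-treated eIF3b-strain cells, 0 for 7 after eIF4E depletion, and 1 for 3 and 5 for 11 at 42 °C and 46 °C in mock-treated eIF4E-strain cells, and ribosome association gave 11 for 7 at 42 °C. DESeq2 gave 5 for 9 in abundance at 46 °C with spike-in, 0 for 1 at 46 °C after eIF4E depletion and 5 for 3 in ribosome association in ethanol; median-of-ratios scaling gave 0 for 1 and 5 for 3 in those last comparisons, and no filter on low counts gave 0 for 1 at 46 °C after eIF4E depletion. Without length centring pSup gave 4 for 2 at 46 °C and 2 for 4 in the CHX experiment's mock cells, and limma without a trend gave 1 for 2 and 0 for 4. With monosome and polysome reads summed, ribosome association at 42 °C gave 1 for 7.

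Leaving out 1 lysate gave, in abundance, 0 to 6 calls for 0 at 46 °C, 1 to 8 for 1 at 46 °C against 42 °C, 3 to 7 for 9 at 46 °C with spike-in, 0 for 1 at 46 °C after eIF4E depletion, 2 to 12 for 10 at 46 °C in Polysome-seq and 7 to 11 for 11 in 0.8% azide in Polysome-seq. In pSup it gave 6 to 10 for 11 in 7.5% ethanol, 0 to 3 for 2 in 10% ethanol, 0 to 6 for 6 in 10% against 5% ethanol, 0 to 10 for 0 at 42 °C, 0 to 14 for 2 at 46 °C, 4 to 13 for 11 at 46 °C with spike-in, 0 for 11 in 0.5% azide, 0 to 5 for 5 in 0.8% azide, 0 to 1 for 0 under CHX, 0 to 11 for 4 at 46 °C in the CHX experiment's mock cells, 8 to 12 for 14 after eIF3b depletion, 1 to 2 for 4 and 4 to 8 for 8 at 42 °C and 46 °C in mock-treated eIF3b-strain cells, 1 to 3 for 7 after eIF4E depletion, 1 for 3 and 5 to 8 for 11 at 42 °C and 46 °C in mock-treated eIF4E-strain cells and 4 to 6 for 10 at 42 °C after eIF4E depletion. In ribosome association it gave 0 to 4 for 7 at 42 °C, 13 to 23 for 23 at 46 °C, 0 to 1 for 3 in ethanol and 3 to 5 for 6 in azide, and in Occ 11 to 20 for 20 at 42 °C. A group with 1 lysate left is assumed to vary like the others. On the TPM scale, an alternative added after the data were seen, the rises of ERG11 and ERG3 in 7.5% ethanol turned to -0.049 and -0.027, those of ARE1 and ERG5 at 42 °C in Polysome-seq to -0.13 and -0.052, and those of ERG1 and ERG26 in the ethanol Polysome-seq to -0.031 and -0.077. With 2 lysates a group, changes smaller than the spread between lysates cannot be resolved at this depth.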
